A study of Mus musculus with 56 samples.

Results

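Activity-regulated immediate early genes were followed through 3 brain regions and the liver of mice that carry 1, 2 or 3 copies of the Sult1a1-Spn interval, the mouse counterpart of human 16p11.2. The members are 34 genes, chosen by symbol. They are measured by 35 of the 41155 probe sets of the deposited table that list a member as their gene, with 2 probe sets for Rgs2. They fall into 18 fast transcription factors, 9 rapid feedback and growth regulators and 7 later effectors. Whole-tissue RNA was profiled on 56 Mouse Gene 2.1 ST arrays of Affymetrix, with 1 array for each tissue of a mouse. The hippocampus and the striatum have 4 heterozygous deletion (Del/+), 8 wild-type (wt) and 4 heterozygous duplication (Dup/+) arrays each, and the cerebellum and the liver have 3, 6 and 3. All mice were adult males on the C57BL/6N background, the rearrangements were made with Cre and loxP, and tissue was collected once behavioral testing had ended. The interval between the last test or handling and the collection is not given in the sources used here. Arrays are named by genotype and by the number at the end of their label, read here as the mouse, and number 17 is given as Del/+ for its cerebellum array but as wt for its hippocampus and liver arrays.

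Immediate early genes are transcribed within minutes of a stimulus, because the factors that switch them on are already present in the cell and no new protein has to be made first. In neurons, calcium entry and kinase signaling act through CREB at cAMP response elements, through SRF and its partners at CArG boxes and through MEF2. The fast transcription factors then act on later genes, the feedback regulators damp the kinases and shorten the life of the messages, and the effectors act at synapses and as secreted signals. Their level in resting tissue follows what an animal did and how it was handled before collection, and many of them also respond to feeding and growth signals in the liver.

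Promoter sequences were searched for elements known to respond to activity. RefSeq start sites of GRCm38.p6 gave a promoter for 26 of the 34 members. In the 250 bases before the start, the core of the cAMP response element, TGACG on either strand, was found in 17 of 26 members (65.4%) and in 19.8% of all 27025 genes with a promoter. Its full palindrome TGACGTCA, which contains the core, was found in Maff, Btg2 and Dusp1, 3 of 26 members (11.5%) against 1.77% of all genes. The CArG box was found in Egr2 and Zfp36, 2 of 26 (7.69%) against 1.62%, on either strand. A TATAAA element on the strand of the gene was found in Fos, Gadd45b, Gadd45g and Inhba, 4 of 26 (15.4%) against 8.94%. The AP-1 element TGANTCA was found in Bdnf, 1 of 26 (3.85%) against 7.82%, and the EGR element GCGTGGGCG in Maff, 1 of 26 (3.85%) against 0.622%, both on either strand. A match describes these letters in this window and shows no binding. The 170 bases before the start are shown for 4 genes that varied together between arrays (Fos, Nr4a1, Btg2 and Dusp1) and for Fosb and Inhba, whose signal in the striatum was lower with each copy at an unadjusted p under 0.05. They run 5′ to 3′ on the strand of the gene, with the core of the cAMP response element in either orientation, its palindrome and TATAAA in capitals.
Fos, chr12:85473720-85473889, plus strand: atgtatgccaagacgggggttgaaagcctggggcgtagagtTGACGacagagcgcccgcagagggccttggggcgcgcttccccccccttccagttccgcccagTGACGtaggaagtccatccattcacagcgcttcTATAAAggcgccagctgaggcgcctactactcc
Fosb, chr7:19310046-19310215, minus strand: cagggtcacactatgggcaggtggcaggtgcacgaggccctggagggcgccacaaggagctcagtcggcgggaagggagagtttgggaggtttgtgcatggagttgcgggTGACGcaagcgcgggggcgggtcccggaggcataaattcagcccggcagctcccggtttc
Nr4a1, chr15:101266676-101266845, plus strand: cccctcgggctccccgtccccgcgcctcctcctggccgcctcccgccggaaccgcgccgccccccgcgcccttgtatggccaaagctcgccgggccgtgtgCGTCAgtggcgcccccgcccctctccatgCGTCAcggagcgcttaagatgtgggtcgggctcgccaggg
Btg2, chr1:134079156-134079325, minus strand: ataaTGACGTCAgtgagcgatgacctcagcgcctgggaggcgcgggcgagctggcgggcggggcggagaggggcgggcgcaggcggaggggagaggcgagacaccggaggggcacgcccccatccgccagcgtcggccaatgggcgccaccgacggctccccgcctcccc
Dusp1, chr17:26508473-26508642, minus strand: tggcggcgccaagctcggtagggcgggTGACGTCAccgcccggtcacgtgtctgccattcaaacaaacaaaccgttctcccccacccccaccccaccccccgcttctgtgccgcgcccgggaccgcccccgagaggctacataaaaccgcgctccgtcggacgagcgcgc
Inhba, chr13:16011681-16011850, plus strand: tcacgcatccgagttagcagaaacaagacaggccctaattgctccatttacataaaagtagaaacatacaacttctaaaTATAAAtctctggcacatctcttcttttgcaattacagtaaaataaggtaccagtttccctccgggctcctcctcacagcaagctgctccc

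The values are log2 signals per probe set, and the authors quantile normalized the 44 arrays of brain apart from the 12 of liver. The median signal of an array was 4.81 to 4.89 for brain and 3.58 to 3.65 for liver, and precision is limited by how many arrays there are. Probe sets were kept by the filter of the study's methods, on highest signal and variance, which left 32 of the 34 members in each brain region and 27 in the liver. Maff and Zfp36 were not kept in brain, where the second probe set of Rgs2 was not kept either. In the liver Fos, Npas4, Nr4a3, Klf6, Bdnf, Nptx2 and Ptgs2 were not kept. Background was set so that 95% of the signals of odorant and vomeronasal receptor genes on wt arrays lie below it. This gave 4.13 for hippocampus, 4.09 for striatum, 4.03 for cerebellum and 3.15 for liver. Of the kept members, Ier2 in the hippocampus and the striatum and Fosb in the liver had a wt mean below it. Of those not kept, Maff was below it in brain and Fos, Npas4, Nr4a3, Nptx2 and Ptgs2 were below it in the liver. Markers of the labelled tissue were present, since the wt signal of the dopamine receptor Drd2 was 11.21 to 11.72 in the striatum, that of Gabra6 was 10.74 to 11.03 in the cerebellum and that of albumin was 12.89 to 13.33 in the liver.

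Some arrays stood apart by the markers of other tissue. In the striatum, all 5 striatal neuron markers were lower on the arrays of Dup/+ 21 and Dup/+ 47 than on the other 14, with list means of 9.32 and 9.95 against 10.64 to 11.17. Markers of the thalamus and midbrain had means of 7.68 and 8.15 there against 5.43 to 6.26, with 5 and 6 of 6 above all other arrays, and astrocyte markers had means of 9.06 and 9.32 against 8.56 to 8.85. In the hippocampus, all 5 striatal markers were higher on the array of Dup/+ 47 than on the other 15, with a mean of 9.92 against 6.33 to 6.76, and the mean of the hippocampal neuron markers was 8.20 against 8.60 to 8.88. Liver markers ran high on some brain arrays, with a mean of 6.99 for the striatum of wt 16 against 4.97 to 6.16 on the other 15. On the hippocampus array of Dup/+ 47 their mean was 6.26 against 4.43 to 5.39, with 6 of 7 above all other arrays. In the cerebellum it ran from 4.82 to 7.26 in Del/+, 4.35 to 5.27 in wt and 4.98 to 5.49 in Dup/+. The part of these markers in the slopes was not tested. The hippocampus array of wt 17 had the highest mean of the thalamus and midbrain markers there, 7.20 against 5.83 to 6.97, with 4 of 6 above all other arrays. Cortical excitatory markers ran from 6.52 to 8.18 over the striatum arrays, highest in Dup/+ 21 with 5 of 7 above all others. For the members with the smallest p in these regions, values without Dup/+ 21 and 47 follow. In whole tissue, fewer cells of a type and less RNA per cell cannot be told apart.

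In none of the 4 tissues did a member differ with copy number of the interval past the 5% FDR threshold. A slope per copy, with Del/+, wt and Dup/+ as -1, 0 and 1, was fitted to log2 signals with limma in each tissue alone. The p-values rest on the spread between these arrays and were adjusted over all kept probe sets. At 5% FDR, 0 of 32 members passed in each brain region and 0 of 27 in the liver. Of all kept probe sets 0.165% passed for hippocampus, 0.139% for striatum, 0.134% for cerebellum and 0.0843% for liver. At an unadjusted p under 0.05 there were 10 members in the striatum and 2 in each of the other tissues. In the contrasts of Del/+ and of Dup/+ with wt at 5% FDR no member passed either. The share of all kept probe sets that passed was 0.119% and 0.0516% for hippocampus, 0.103% and 0.0103% for striatum, 0.0877% and 0% for cerebellum and 0% for both liver contrasts.

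**Figure D1:**
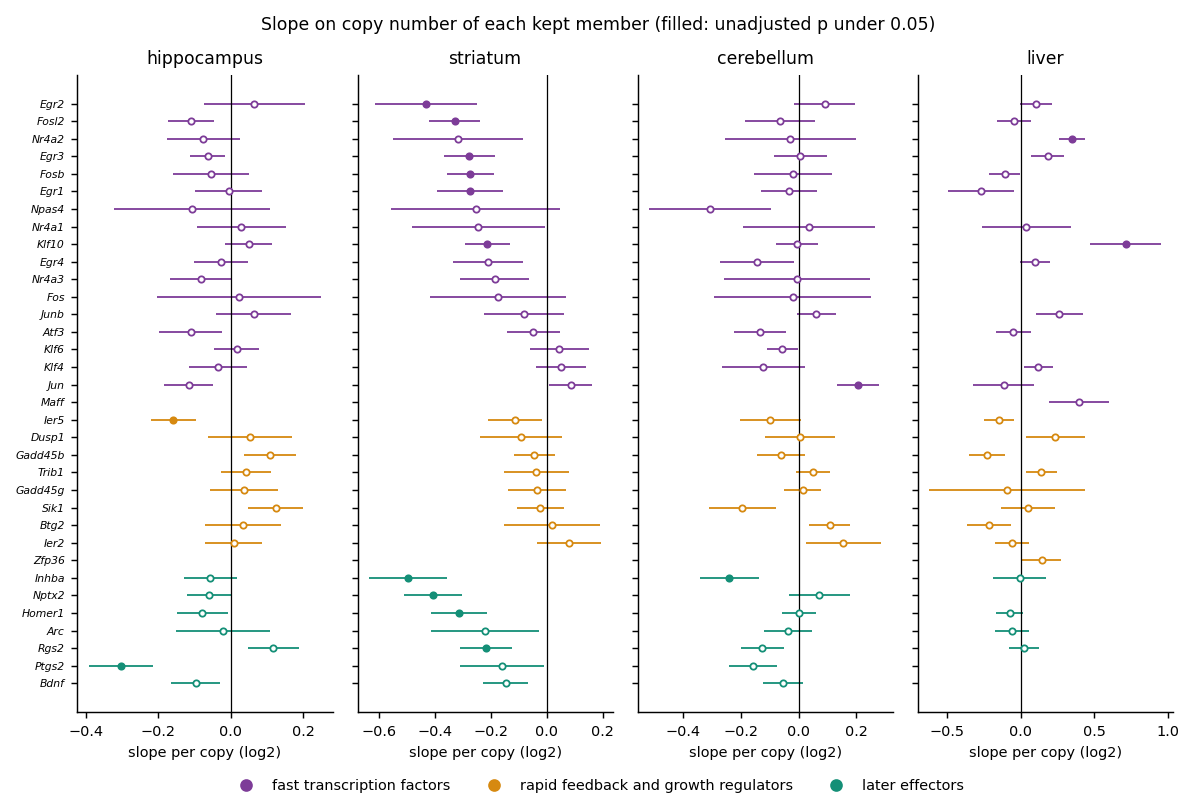
Slope of log2 signal per copy of the interval for each kept member in the 4 tissues, with bars of 1 standard error, colored by class and filled where the unadjusted p was under 0.05. The 10 filled members of the striatum all lie below 0, while the slopes of the hippocampus and the cerebellum lie on both sides of it.

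In the striatum most members had less signal with each added copy, and this was seen in all 3 classes once the arrays of Dup/+ 21 and 47 were left out. The slope was negative for 27 of 32 members, with a median of -0.18 against 0.0033 over all kept probe sets. At an unadjusted p under 0.05, 10 members were lower with each copy and 0 higher, where 4.01% of all kept probe sets were lower and 5.03% higher. The median slope was -0.21 for the fast transcription factors (14 of 17 negative), -0.22 for the later effectors (7 of 7 negative) and -0.04 for the feedback regulators (6 of 8 negative). Without the arrays of Dup/+ 21 and 47 these medians were -0.17 (16 of 17), -0.24 (7 of 7) and -0.10 (8 of 8). Members that vary together on the same arrays are not separate observations, and none of the 10 passed at 5% FDR.

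Among the later effectors, Nptx2, a neuronal pentraxin that is secreted and gathers AMPA receptors at synapses, had the smallest p of all members. Its log2 signal was 8.23, 7.78, 8.51 and 7.84 in Del/+ 11, 23, 7 and 28, and it ran from 7.21 over a median of 7.58 to 7.97 in wt. It was 7.19, 7.75, 6.79 and 7.38 in Dup/+ 19, 21, 47 and 54. Del/+ and Dup/+ arrays did not overlap, and each group overlapped with wt. The slope was -0.41 (standard error 0.10, unadjusted p = 0.00117, adjusted p = 0.306 in limma), and within the 3 array plates it was -0.40, -0.38 and -0.41. Without the arrays of Dup/+ 21 and 47 it was -0.41 (adjusted p = 0.521). Nptx2 and the members below whose Del/+ and Dup/+ arrays do not overlap were named for a small p on these same arrays. The lack of overlap is thus no separate result, and its share over all kept probe sets was not counted.

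Inhba, the subunit of activin A, a secreted factor of the TGF-beta family, had the steepest slope of the members, and it was flatter without the arrays that stood apart by their markers. Its signal was 7.23, 6.97, 6.90 and 6.64 in Del/+ 11, 23, 7 and 28 and ran from 6.33 over a median of 6.58 to 7.23 in wt. In Dup/+ it was 6.57 on array 19 and 6.50 on array 54, within the wt range, but 5.29 on array 21 and 5.42 on array 47, below every other array. The slope was -0.50 (standard error 0.14, adjusted p = 0.342 in limma) and -0.21 (unadjusted p = 0.0702) without those 2 arrays, and within the plates it was -0.25, -0.80 and -0.37. Homer1 encodes a scaffold of the postsynaptic density, whose short, activity-induced form was not told apart from the long forms here. It had 8.86, 8.69, 9.12 and 8.60 in Del/+, 8.41 to 9.02 with a median of 8.75 in wt and 8.62, 8.28, 7.58 and 8.28 in Dup/+, and 3 of 4 Dup/+ arrays lay below all wt arrays. Its slope was -0.31 (standard error 0.10, adjusted p = 0.414 in limma) and -0.17 without the 2 arrays. The part of the other tissue in these slopes was not tested.

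The remaining effectors had flatter slopes. Rgs2, which speeds the shut-off of G protein signaling, had a slope of -0.22 (unadjusted p = 0.0304) and of -0.08 without Dup/+ 21 and 47. Bdnf, the neurotrophin, had a slope of -0.15 and of -0.24 (unadjusted p = 0.00929) without them. Its wt mean in the striatum, 4.15, lay close to the background of 4.09. Arc, which removes AMPA receptors from synapses, had 9.34, 8.54, 9.65 and 9.55 in Del/+ 11, 23, 7 and 28, 8.25 to 9.60 with a median of 9.04 in wt and 9.08, 9.80, 8.54 and 7.89 in Dup/+ 19, 21, 47 and 54. The highest and the lowest Arc signal of the striatum were therefore both in Dup/+ mice, and its slope was -0.22 (standard error 0.19, adjusted p = 0.764 in limma). Without Dup/+ 21 and 47 it was -0.38 (standard error 0.21, adjusted p = 0.868).

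**Figure D2:**
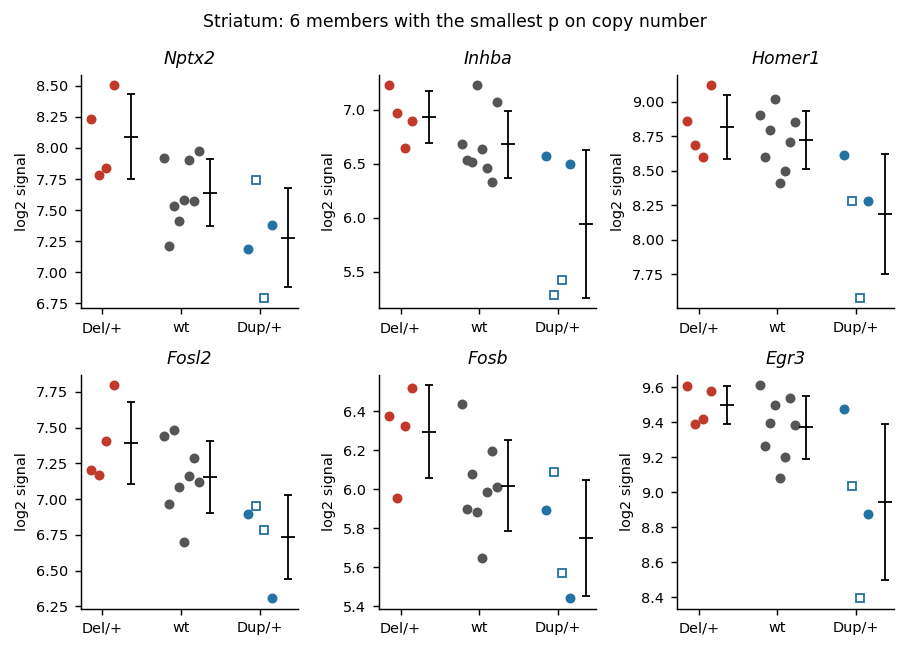
Log2 signal of Nptx2, Inhba, Homer1, Fosl2, Fosb and Egr3 in each striatum array by genotype, with the group mean and SD (n = 4, 8 and 4) beside the points and the arrays of Dup/+ 21 and 47 as open squares. Del/+ and Dup/+ do not overlap for Nptx2 and Fosl2, and the 2 open squares of Inhba, at 5.29 and 5.42, lie below all other arrays.

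Among the fast transcription factors of the striatum, 6 of 17 were lower with each copy at an unadjusted p under 0.05, where 4.01% of all kept probe sets were. Without Dup/+ 21 and 47, those lower at this threshold were Fosl2, Fosb and Fos, where 2.24% of all kept probe sets were. Fosl2, a FOS-related subunit of the dimeric factor AP-1, had 7.20, 7.17, 7.79 and 7.41 in Del/+ 11, 23, 7 and 28 and 6.70 to 7.48 with a median of 7.14 in wt. In Dup/+ 19, 21, 47 and 54 it had 6.90, 6.95, 6.78 and 6.31, all below every Del/+ array. The slope was -0.33 (standard error 0.09, unadjusted p = 0.00218, adjusted p = 0.342 in limma), it was -0.36 without Dup/+ 21 and 47, and within plates it was -0.11, -0.42 and -0.45.

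Fosb, the AP-1 subunit whose truncated product builds up in the striatum under repeated stimulation, had 6.37, 5.96, 6.52 and 6.33 in Del/+ and 5.90, 6.09, 5.57 and 5.44 in Dup/+, in the same order of arrays. Its wt signals ran from 5.65 over a median of 6.00 to 6.44. The groups overlapped by Del/+ 23 and Dup/+ 21, and the slope was -0.27 (standard error 0.08, adjusted p = 0.411 in limma) and -0.31 without Dup/+ 21 and 47. Within the plates it was -0.14, -0.21 and -0.42. For Egr3, a zinc finger factor, the slope was -0.28 (standard error 0.09, adjusted p = 0.426 in limma), with 9.60, 9.39, 9.58 and 9.42 in Del/+, 9.08 to 9.61 with a median of 9.39 in wt and 9.47, 9.04, 8.39 and 8.87 in Dup/+. Dup/+ 19 lay within the wt range and the other 3 below it, and without Dup/+ 21 and 47 the slope was -0.15.

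The slope was -0.43 for Egr2, -0.27 for Egr1 and -0.21 for Klf10, with unadjusted p of 0.0311, 0.0334 and 0.0168 in limma. Without Dup/+ 21 and 47 the slopes were -0.43, -0.27 and -0.17 (unadjusted p = 0.0747, 0.0574 and 0.0940 in limma). Egr1, a zinc finger factor used widely as a marker of active neurons, had 9.01, 8.72, 9.43 and 9.46 in Del/+ 11, 23, 7 and 28, 8.48 to 9.27 with a median of 9.01 in wt and 9.05, 9.10, 8.17 and 8.13 in Dup/+ 19, 21, 47 and 54. Its 4 Dup/+ arrays thus split into a pair within the wt range and a pair below it. Fos, the founding member of the family, had 5.52, 4.35, 6.14 and 5.61 in Del/+, 4.07 to 5.75 with a median of 5.25 in wt and 4.82, 6.45, 5.18 and 3.79 in Dup/+. The highest and the lowest Fos array were both Dup/+, as for Arc, and the slope was -0.17 (standard error 0.24, adjusted p = 0.875 in limma). Jun, Klf4 and Klf6 were the 3 factors of positive slope, 0.08, 0.05 and 0.05, which became -0.03, 0.05 and -0.10 without the 2 arrays.

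Without the arrays of Dup/+ 21 and 47, 5 members were lower at an unadjusted p under 0.05 and 0 higher, where 2.24% of all kept probe sets were lower. These were Nptx2, Fosl2, Fosb, Bdnf and Fos, the last with a slope of -0.52 (unadjusted p = 0.0459), and 31 of 32 slopes were negative, with a median of -0.17. Of these 5, Bdnf had a wt mean close to background. The Dup/+ group then held 2 arrays. Number 54 was the lowest of the 16 for 7 of 32 members, with no count over all kept probe sets. Its striatal marker mean, 10.80, lay within the range of the others. Its mean was below theirs for microglia and macrophage markers (6.31 against 6.32 to 6.59) and for endothelial markers (6.22 against 6.33 to 6.66). The part of these markers in the slopes was not tested. Without Dup/+ 54 as well, only the array of Dup/+ 19 was left in the group, and no count is given for that fit. When each of the 16 arrays was left out alone, the count ran from 7 to 11 and no member passed at 5% FDR. The share over all kept probe sets was not counted for these fits. Choroid plexus markers also differed by genotype in the striatum, with array means of 5.63 to 8.75 in Del/+, 6.28 to 8.40 in wt and 8.33 to 8.88 in Dup/+ and 4 of 5 higher with each copy at an unadjusted p under 0.05, and their part in the slopes of the members was not tested.

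Set against wt, the Del/+ signal was higher for 25 of 32 members in the striatum (median difference 0.19). The Dup/+ signal was lower for 23 (median -0.14). Over all kept probe sets these medians were -0.0063 and 0.0060, and the contrasts share the wt arrays. At an unadjusted p under 0.05, Nptx2 and Bdnf were higher in Del/+ than in wt, by 0.45 and 0.32, and no member was lower, against 1.67% of all kept probe sets higher and 2.02% lower. The wt mean of Bdnf lay close to background. In Dup/+, 6 members were lower than in wt, where 6.3% of all kept probe sets were. They were Inhba (-0.74), Homer1 (-0.54), Egr4 (-0.53), Egr3 (-0.43), Fosl2 (-0.42) and Rgs2 (-0.41), with adjusted p from 0.258 to 0.292 in limma. Jun was higher by 0.26, 1 of 32 against 6.66%. Without Dup/+ 21 and 47, 1 member was left, Fosl2 at -0.55 (unadjusted p = 0.0202, adjusted p = 0.978 in limma). Inhba was then at -0.15, Homer1 at -0.28, Egr4 at -0.46, Egr3 at -0.20, Rgs2 at -0.16 and Jun at 0.06. Without Dup/+ 19, Egr3 alone passed at 5% FDR in this contrast, at -0.60 (adjusted p = 0.0459 in limma), and 2 of the 3 Dup/+ arrays then left are those of 21 and 47.

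In the hippocampus slopes lay close to 0, with a median of -0.02 over 32 members against 0.0051 over all kept probe sets. At an unadjusted p under 0.05, 2 members were lower with each copy and 0 higher, where 2.8% of all kept probe sets were lower and 3.51% higher. Ptgs2, the inducible cyclooxygenase that makes prostaglandins, had 8.24, 8.91, 8.54 and 8.64 in Del/+ 7, 11, 26 and 23, 8.02 to 8.69 with a median of 8.24 in wt and 8.03, 7.46, 8.25 and 8.16 in Dup/+ 21, 47, 18 and 45. The Del/+ and Dup/+ arrays overlapped at 8.24 and 8.25, and the array of Dup/+ 47 was the lowest of all. The slope was -0.30 (standard error 0.09, unadjusted p = 0.00325, adjusted p = 0.390 in limma) and -0.22 (adjusted p = 0.699) without Dup/+ 47, and -0.27, -0.33 and -0.23 within plates. For Ier5, a regulator of the heat shock response, the slope was -0.16 (standard error 0.06, adjusted p = 0.70 in limma), with 6.69, 6.58, 6.75 and 6.82 in Del/+, 6.16 to 6.76 with a median of 6.53 in wt and 6.57, 6.31, 6.40 and 6.29 in Dup/+. Its Del/+ arrays all lay above its Dup/+ arrays, by little, and without Dup/+ 47 its slope was -0.15 (unadjusted p = 0.0398).

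The next members in order of p in the hippocampus were Fosl2 (slope -0.11), Jun (-0.12), Rgs2 (0.12) and Sik1 (0.12), with adjusted p of 0.840 to 0.855 in limma. The array of Dup/+ 47, with its striatal markers, had the lowest Jun signal (8.73, others 9.02 to 9.64) and the highest Rgs2 signal (9.44, others 8.53 to 8.82) of the 16. In wt mice Jun had less and Rgs2 more signal in the striatum than in the hippocampus. The part of other tissue in the signals of this array and in the slopes was not tested. Without the array of Dup/+ 47 the slopes of Fosl2, Jun, Rgs2 and Sik1 were -0.07, -0.05, 0.02 and 0.07, 2 members were lower at an unadjusted p under 0.05 (2.53% of all kept probe sets were), and the median slope of the members was -0.01.

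Fos, Egr1 and Arc were flat over copy number in the hippocampus, with slopes of 0.02, -0.01 and -0.02 (adjusted p = 0.997, 0.998 and 0.996 in limma). Fos had 5.49, 5.52, 5.63 and 4.47 in Del/+ 7, 11, 26 and 23 and 5.78, 5.27, 5.32 and 4.92 in Dup/+ 21, 47, 18 and 45. In wt it ran from 3.60 over a median of 4.86 to 5.83, a span that holds every Del/+ and Dup/+ array. A slope does not show a difference from wt that is alike in both carriers. Against wt, the signal was higher for 29 of 32 members in Del/+ (median 0.15) and for 24 in Dup/+ (median 0.12). Over all kept probe sets these medians were -0.0048 and 0.0060, and both contrasts use the same 8 wt arrays.

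At an unadjusted p under 0.05, 3 members were higher in Del/+ than in wt and 0 lower (2.83% and 3.57% of all kept probe sets), and 3 were higher in Dup/+ and 0 lower (2.67% and 2.09%). In Del/+ these were Inhba (0.33), Ier5 (0.26) and Egr3 (0.18). In Dup/+ they were Gadd45b (0.37), a stress-induced protein with a part in DNA demethylation, Sik1 (0.27), a kinase that holds back the CREB coactivators, and Inhba (0.22). Gadd45b had 7.65, 7.61, 7.55 and 7.45 in Dup/+ 21, 47, 18 and 45 and 6.88 to 7.47 with a median of 7.16 in wt, and its adjusted p was 0.711 in limma. Its 4 Dup/+ arrays lay above 7 of the 8 wt arrays. Without Dup/+ 47 the differences of Gadd45b, Sik1 and Inhba were 0.36, 0.19 and 0.11 (unadjusted p = 0.00585, 0.190 and 0.250 in limma). The wt array of number 17 was the lowest of the 16 arrays for 10 members and that of wt 16 was the highest for 10. Such counts were made for the members alone, not over all kept probe sets. The array of wt 17 is the one with high thalamus and midbrain markers, whose part in these counts was not tested. Without wt 17, 1 member was left in each contrast, and without wt 16 there were 7 in Del/+. With array plate as a block there were 6 in Del/+. No share of all kept probe sets is given for these fits.

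In the cerebellum the median slope was -0.02, and at an unadjusted p under 0.05 1 member was lower with each copy and 1 higher, against 2.87% and 3.38% of all kept probe sets. Jun, the main partner of FOS proteins in AP-1, had 8.72, 9.02 and 8.75 in Del/+ 26, 28 and 17, 8.81 to 9.25 with a median of 8.90 in wt and 9.37, 8.97 and 9.37 in Dup/+ 47, 45 and 19. Only Del/+ 28 lay above the lowest Dup/+ array, and the slope was 0.21 (standard error 0.07, adjusted p = 0.687 in limma). Inhba had 4.76, 4.81 and 5.06 in Del/+, 4.02 to 4.87 with a median of 4.55 in wt and 4.59, 4.49 and 4.11 in Dup/+. Its Del/+ and Dup/+ arrays did not overlap, and the slope was -0.24 (standard error 0.10, adjusted p = 0.763 in limma). The share of all kept probe sets without overlap between so few arrays was not counted. Without Dup/+ 19 neither gene was left at this threshold, and without Del/+ 17 or Dup/+ 47 1 of them was.

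The next members of the cerebellum were Ptgs2 (slope -0.16), Rgs2 (-0.12), Sik1 (-0.19) and Btg2 (0.11), with adjusted p of 0.804 to 0.851 in limma. Fos, Egr1 and Arc had slopes of -0.02, -0.03 and -0.04. The array of wt 25 was the lowest of the 12 for 11 of 32 members, with no count over all kept probe sets. Its Fos signal was 4.25, where the other arrays had 5.81 to 6.93, and its Dusp1 signal was 8.54 where the others had 9.15 to 9.64. The mean of its cerebellar markers, 10.46, lay within the range of the other arrays, as did those of all other marker lists except the liver list, at 4.35 against 4.43 to 7.26.

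In the liver 2 fast transcription factors were higher with each copy at an unadjusted p under 0.05 and 0 members lower, against 2.83% and 4.36% of all kept probe sets. Nr4a2, an orphan nuclear receptor, had 4.20, 4.31 and 4.64 in Del/+ 11, 26 and 28, 4.49 to 5.0 with a median of 4.67 in wt and 5.22, 5.08 and 4.93 in Dup/+ 18, 19 and 21. Its Del/+ and Dup/+ arrays did not overlap, and the slope was 0.35 (standard error 0.09, unadjusted p = 0.00156, adjusted p = 0.338 in limma), with 0.51, 0.38 and 0.14 within plates. Klf10, a TGF-beta induced factor that in the liver acts on genes of sugar metabolism, had 6.15, 6.92 and 7.65 in Del/+, 6.74 to 8.72 with a median of 8.33 in wt and 8.49, 7.80 and 8.70 in Dup/+. All 3 Dup/+ arrays lay above all 3 Del/+ arrays, and the slope was 0.71 (standard error 0.24, adjusted p = 0.571 in limma), with 1.17, 0.44 and 0.52 within plates. Against wt, Klf10 was lower by 1.17 in Del/+ (adjusted p = 0.862 in limma) and Nr4a2 by 0.35.

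Maff, a small MAF factor, Gadd45b, Egr3 and Junb followed in the liver, with slopes of 0.40, -0.23, 0.18 and 0.26 and adjusted p of 0.717 to 0.770 in limma. Egr1 had 6.30, 6.23 and 4.26 in Del/+ 11, 26 and 28, 4.77 to 6.06 with a median of 5.21 in wt and 5.34, 5.09 and 4.74 in Dup/+ 18, 19 and 21. The highest and the lowest Egr1 array were both Del/+, and the slope was -0.27 (standard error 0.22, adjusted p = 0.845 in limma). Arc, at a wt signal of 3.85 to 4.21, had a slope of -0.06 (adjusted p = 0.952 in limma). Fos had a wt signal of 2.85 to 3.31 and was not tested after the filter.

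The slopes differed between brain regions for no member at 5% FDR. The contrasts of slopes in limma over the 44 brain arrays called 0% of all kept probe sets between the striatum and the hippocampus, 0% between the cerebellum and the hippocampus and 0.0206% between the striatum and the cerebellum. The slope of Rgs2 was lower by 0.34 in the striatum than in the hippocampus, that of Inhba was lower by 0.44 and that of Nptx2 by 0.35 (adjusted p = 0.473, 0.473 and 0.479 in limma). The array of Dup/+ 47 stands apart in both regions, and without it and the striatum array of Dup/+ 21 these differences were -0.10, -0.08 and -0.36 (unadjusted p = 0.289, 0.536 and 0.00989 in limma). Between the striatum and the cerebellum, the slope of Nptx2 differed by -0.48 (adjusted p = 0.368 in limma) and by -0.48 (adjusted p = 0.579) without those arrays. A p that misses the threshold does not show that the slopes are alike.

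Between brain regions of wt mice the members differed far more than between genotypes, and all 7 later effectors were lower in the cerebellum than in the hippocampus. At 5% FDR in limma, 19 of 32 members were lower in the cerebellum than in the hippocampus and 6 were higher, where 26.8% and 33.4% of all kept probe sets were. All 7 later effectors were lower, with differences of -3.66 for Ptgs2 (adjusted p = 7.37e-15), -2.35 for Nptx2 (3.32e-14), -1.68 for Arc (7.57e-07) and -1.21 for Rgs2 (8.86e-10). Of the fast transcription factors 11 of 17 were lower and 2 higher. The largest difference among the members was that of Egr3, -4.49 (adjusted p = 1.65e-21), whose 8 wt hippocampus arrays lay between 8.64 and 9.09 and whose 6 wt cerebellum arrays lay between 4.13 and 4.42. Fos went the other way, higher in the cerebellum by 1.43 (adjusted p = 0.00288), as did Atf3, a factor of the stress response. Of the feedback regulators 4 of 8 were higher there and 1 lower, and Dusp1, the phosphatase that switches off MAP kinases, was higher by 1.28 (adjusted p = 9.58e-06).

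In the striatum 11 members were higher and 8 lower than in the hippocampus of wt mice, against 15.2% and 16.4% of all kept probe sets. Rgs2, Inhba and Homer1 were higher, by 1.38, 1.22 and 0.96 (adjusted p = 8.54e-11, 3.99e-08 and 7.72e-08 in limma). Ptgs2, Jun and Bdnf were lower, with differences of -2.01, -1.25 and -0.96 (adjusted p = 3.58e-10, 9.56e-12 and 8.10e-10 in limma). Egr1, Egr2, Egr3 and Egr4 were all higher, by 0.67, 0.95, 0.61 and 0.62. For Fos, Arc and Npas4, which vary widely between arrays, the differences were 0.30, 0.06 and 0.61, with adjusted p of 0.595, 0.878 and 0.200 in limma. Between the striatum and the cerebellum 18 members were higher in the striatum and 9 lower, against 26.8% and 33.7% of all kept probe sets, and all 8 feedback regulators were among the 27. Bdnf was the single later effector lower in the striatum than in the cerebellum, with a difference of -0.63 (adjusted p = 5.97e-07 in limma). Its wt mean in the striatum lay close to background. The order of Egr3 was striatum, hippocampus, cerebellum, and each step passed the test, while for Fos the hippocampus and the striatum were not told apart and the cerebellum was above both.

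**Figure D3:**
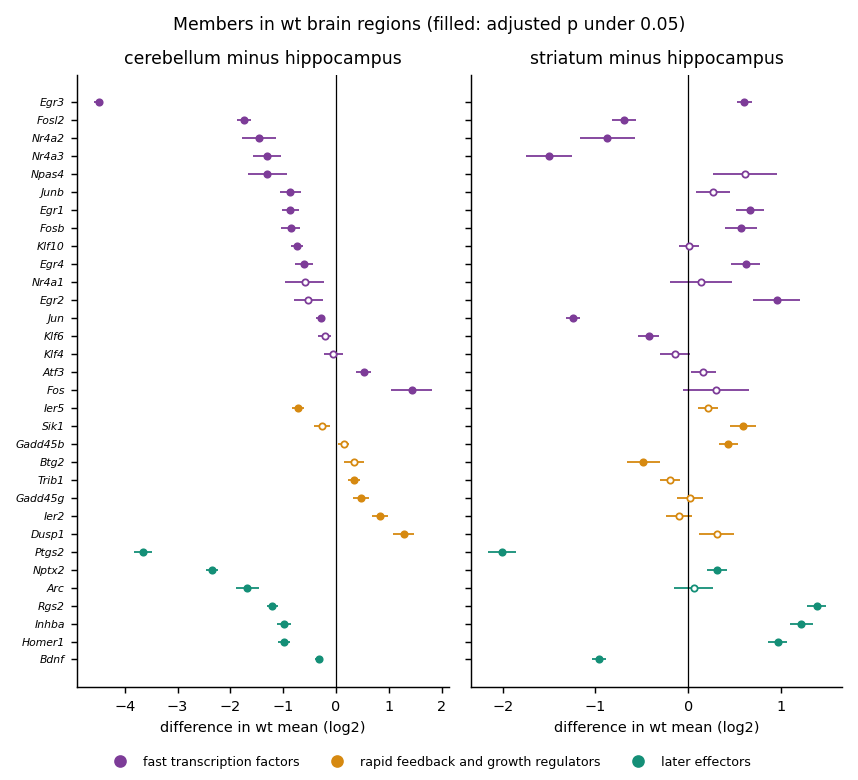
Difference in mean log2 signal of each kept member between brain regions of wt mice (8 hippocampus, 8 striatum and 6 cerebellum arrays), with bars of 1 standard error, filled where the adjusted p was under 0.05. All 7 later effectors are filled and below 0 for the cerebellum, from Bdnf to Ptgs2 at -3.66, and Egr3 lies furthest out at -4.49.

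By the median of their class, the fast transcription factors of the brain exceeded the median of all genes in spread after the dosage fit. This is not the spread within a genotype alone, since genotype means that lie off a straight line add to it. The standard deviation left after the dosage fit was largest for Fos (0.69) and Npas4 (0.66) in the hippocampus, at percentiles 97.9 and 97.5 of all kept probe sets, followed by Egr2, Arc and Nr4a1 (0.42, 0.39 and 0.37). Npas4 is a neuron-specific factor that answers to calcium entry. In the striatum it was largest for Npas4 (0.94), Fos (0.75), Nr4a1 (0.74), Nr4a2 (0.72) and Arc (0.59). Nr4a2 was highest in wt 29 and Del/+ 7 (9.11 and 9.09) and lowest in Dup/+ 47 and wt 48 (6.72 and 7.02). The mean of the cortical excitatory markers was 7.76 and 7.98 on the first pair and 6.85 and 6.78 on the second, and their part in this spread was not tested. Among wt mice alone, Npas4 in the striatum ran from 6.00 to 8.09 and Nr4a1, an orphan nuclear receptor, from 8.08 to 10.14. In the cerebellum it was largest for Fos (0.74), Nr4a3 (0.69), Nr4a1, Nr4a2 and Npas4, while Arc, at 0.20 and percentile 44.6, was not among the wide ones there.

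The liver had other members at the top. Gadd45g, a stress sensor of the family of Gadd45b, had a standard deviation of 1.53 after the fit, at percentile 99.9. Its wt signals ran from 4.42 over a median of 5.12 to 7.80, and 4.59 to 7.94 in Del/+ and 4.55 to 8.14 in Dup/+ mice covered the same span. It was followed by Nr4a1 (0.87), Klf10 (0.68), Egr1 (0.62) and Jun (0.58). Over each class the median percentile was 61.8, 73.8, 74.4 and 52.3 for the fast transcription factors and 44.7, 65.7, 44.6 and 44.1 for the later effectors in the hippocampus, striatum, cerebellum and liver.

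**Figure D4:**
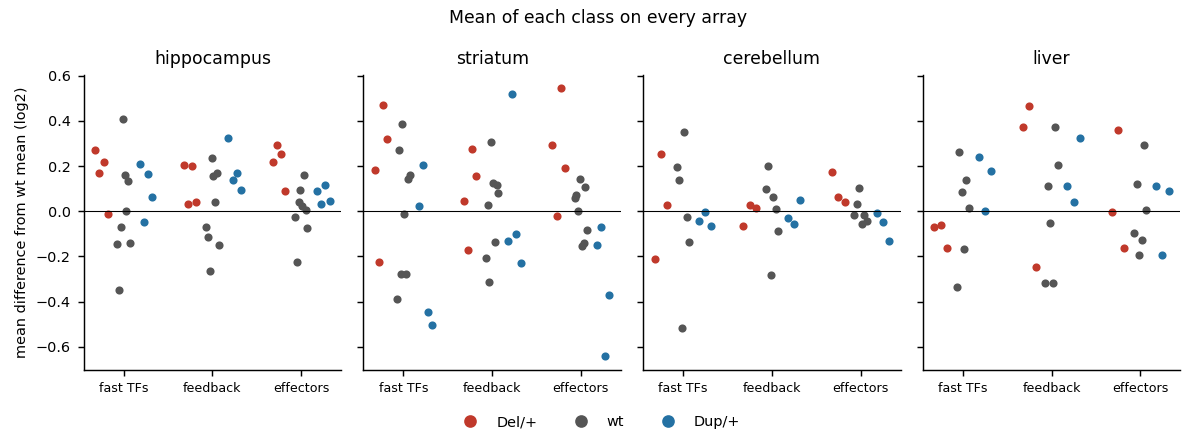
Mean difference of each class from the wt mean of the tissue on every array, in log2 units, for fast transcription factors, feedback regulators and later effectors. In the striatum the wt arrays of the fast transcription factors span -0.39 to 0.38, and the arrays of Dup/+ 47 and 54 lie below them at -0.45 and -0.50. That of Dup/+ 47 stood apart by its markers. Del/+ 7 lies above the wt span at 0.47, and the other Del/+ and Dup/+ arrays lie inside it.

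The members varied together between arrays in the hippocampus and the striatum, with lower medians in the cerebellum and the liver. After the genotype slope was taken out, the median correlation between pairs of members was 0.26 in the hippocampus and 0.31 in the striatum (16 arrays each), 0.04 in the cerebellum and 0.12 in the liver (12 arrays each). Over all pairs of kept probe sets it was 0.0042, 0.00060, 0.0073 and 0.0055. These points share arrays and normalization, and the values are a description. Among the fast transcription factors the median was 0.35, 0.44, 0.20 and -0.02 in the same order. Of member pairs, 8.27% were above 0.7 for hippocampus and 0.305% of all pairs were. For striatum it was 13.5% against 0.694%, for cerebellum 8.27% against 1.06% and for liver 5.41% against 1.33%.

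The closest pairs named here for the hippocampus and the striatum were made up of fast transcription factors, feedback regulators and Arc. In the hippocampus they were Btg2 and Arc (0.94), Nr4a1 and Arc (0.93) and Btg2 and Nr4a1 (0.92), and in the striatum Nr4a1 and Junb (0.96), Btg2 and Fos (0.95) and Arc and Dusp1 (0.94). Btg2 halts the cell cycle and takes part in message decay. In the cerebellum the nuclear receptors paired with each other, Nr4a1 with Nr4a3 at 0.98 and with Nr4a2 at 0.95. Btg2 and Dusp1 are the 2 of the 6 genes shown above whose promoters hold the full palindrome. Not all members went along in the striatum, since Btg2 and Inhba had a correlation of -0.73 there. In the liver the closest pairs were Zfp36 and Junb (0.89) and the same Btg2 and Inhba (0.88). The striatum correlations include the Dup/+ arrays that stood apart by their markers. The part of those arrays in the correlations was not tested. Of all kept probe sets of 1 gene, those most like Fos were Arc (0.89), Slc40a1 (0.86), Btg2 (0.86), Nr4a1 (0.85) and Mir212 (0.85) in the hippocampus and Btg2 (0.95), Dusp1 (0.93), Ccn1 (0.93), Arc (0.92) and Mir467e (0.85) in the striatum.

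Fos, Egr1 and Arc were compared between the hippocampus and the striatum of the same mice, and Fos and Arc passed by rank correlation alone after adjustment. For 9 mice with both a hippocampus and a striatum array (3 Del/+, 4 wt and 2 Dup/+), each array was set against the mean of its genotype and tissue. For Fos, Pearson's r between the regions was 0.64 (exact permutation test over 362880 pairings, two-sided, p = 0.0590, 0.0885 after adjustment over the 3 genes tested). Spearman's rho was 0.78 (same exact test, p = 0.0172, adjusted 0.0321). For Arc r was 0.70 (exact permutation test, p = 0.0353, adjusted 0.0885) and rho was 0.77 (exact test, p = 0.0214, adjusted 0.0321). After the dosage fit, Fos and Arc had a correlation of 0.89 over the hippocampus arrays and 0.92 over the striatum arrays. Their results on the same mice are thus not separate observations. For Egr1 r was 0.31 (exact permutation test, p = 0.451) and rho was 0.53 (exact test, p = 0.148). Without the 2 mice farthest from the median in the hippocampus, r was 0.79 for Fos, 0.90 for Arc and 0.47 for Egr1, and without mice 21 and 47 it was 0.71, 0.77 and 0.46.

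**Figure D5:**
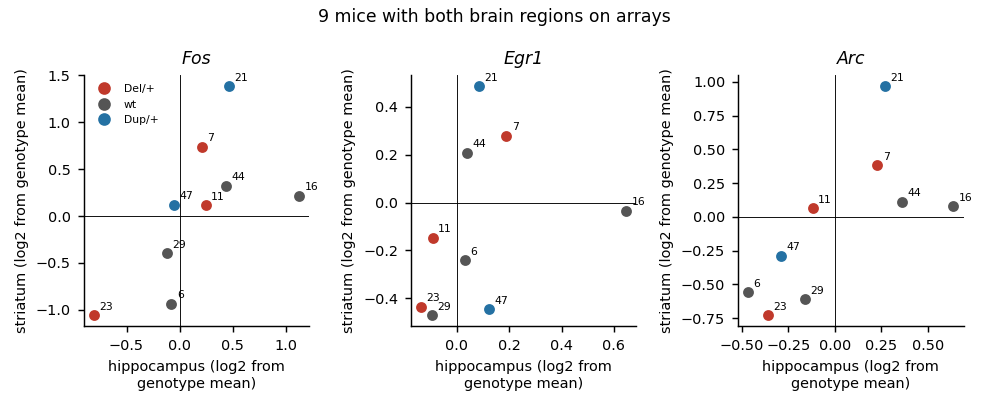
Fos, Egr1 and Arc in the hippocampus (horizontal) and the striatum (vertical) of 9 mice, as log2 difference from the mean of genotype and tissue, with mouse numbers beside the points. Mouse 23 is low in both regions for Fos and Arc, and mice 7 and 21 lie above the mean in both.

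Genes around the members were counted as a comparison. Of the transcription factors that act upstream (SRF, ELK, MRTF, CREB, CRTC and MEF2 families), 12 of 13 were measured by a probe set for that gene alone, and none passed at 5% FDR in any tissue. Srf had a slope of -0.18 in the striatum (unadjusted p = 0.0110, adjusted p = 0.453 in limma), the smallest p of this list in brain. Of 23 other activity-regulated genes, 22 were measured in that way and 20 were kept in brain. In the hippocampus 4 of them were lower with each copy at an unadjusted p under 0.05 and 1 higher. There were 2 lower and 0 higher for striatum, 3 and 0 for cerebellum and, of 18 kept probe sets, 3 and 1 for liver. The shares over all kept probe sets were 2.8% lower and 3.51% higher for hippocampus, 4.01% and 5.03% for striatum, 2.87% and 3.38% for cerebellum and 4.36% and 2.83% for liver. Vgf, a neuropeptide precursor, was the single gene of the list to pass at 5% FDR, with a slope of -0.37 in the cerebellum (standard error 0.06, adjusted p = 0.0158 in limma). Pcsk1, a convertase that cuts such precursors, and the granin Scg2 followed there with slopes of -0.34 and -0.14 (adjusted p = 0.0857 and 0.702). In the hippocampus Nfil3, Dusp4 and Per1 had slopes of -0.20, -0.25 and 0.20 and in the striatum Plk2 and Cdkn1a had -0.22 and -0.17, with adjusted p of 0.245 to 0.658 in limma.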

How the data were processed

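RNA of 4 tissues was measured on whole-transcript arrays. In the submitters' notes the authors name Affymetrix Expression Console, and quantile normalization was run on brain and liver apart. The deposited values were read as log2 signals from their range, 0.57 to 13.57. The background correction and the summary of probes are not given in the sources used here. The filter asked for a highest signal of at least the overall median (4.85 for brain, 3.61 for liver) and a variance above the 25th percentile, over the arrays normalized together, which left 19389 and 18982. Of all 41155, 23521 list 1 gene, and a gene is named from such a probe set alone. Slopes and contrasts were fitted with limma (version 3.58.1) in R (version 4.3.3), two-sided, with Benjamini-Hochberg adjustment over the kept probe sets, and the fit was tested on simulated data. Other steps used Python (version 3.11.15), numpy (version 2.4.6), scipy (version 1.17.1), pandas (version 2.3.3) and matplotlib (version 3.10.9). Array plates of 24 were read from the array numbers.

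The members, their classes and all lists were chosen with earlier results of these data known. Named in full are the 6 members with the smallest p and the 5 with the largest residual spread in each tissue, Fos, Egr1 and Arc, members that pass in any comparison and the 5 probe sets most like Fos. From the 2 further lists, the gene that passed and some of those with the smallest p in brain are named, and none for the liver. Others are named where a count or an array is described. The alternatives were no filter, a filter within the tissue, a block for array plate, robust moderation with a variance trend, repeated quantile normalization, the mouse number as a replicate block and leaving out each array. In the fit over regions, 18 of 24 mice had several regions. A number was read as the same mouse across regions where the genotype label was also the same, so that number 17 counts as 2 mice, and the consensus correlation between regions of a mouse was 0.0101 for slopes and 0.0122 for wt levels. Alternatives that left out several Dup/+ arrays, wt 17 in the genotype contrasts, or hippocampus Dup/+ 47, in slopes, contrasts and slope differences, were in part chosen after seeing the data.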

Additional observations from a re-analysis of the deposited data

Results flagged for a closer look

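Among 96 groups of 4 to 8 arrays examined, 6 (6.25%) held an array far from the others of its group, where the critical value used flags about 1 group in 20 by chance. The measure is the gap of that array to its nearest neighbor over the whole range of the group. In the cerebellum the array of wt 25 was low for Fos (4.25, others 6.09 to 6.82, gap over range 0.715) and for Egr1 (6.77, others 7.39 to 7.71, 0.666), and wt 49 was high for Jun (9.25, others 8.81 to 8.93, 0.717). In the hippocampus Del/+ 23 was low for Fos (4.47, others 5.49 to 5.63, 0.877) and Dup/+ 45 was low for Egr1 (8.04, others 8.47 to 8.51, 0.899). In the liver wt 16 was high for Egr3 (4.08, others 3.45 to 3.67, 0.656). Del/+ 23 was also low for Fos in the striatum, at 4.35 where the other Del/+ arrays had 5.52 to 6.14.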

How the results depend on the processing

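Apart from leaving out 1 array or mouse, 302 values kept their direction and side of the threshold or stayed close to the first value. The exceptions were the striatum count at an unadjusted p under 0.05, 10, which was 5 without Dup/+ 21 and 47, the count of Dup/+ against wt in the striatum, 7, which was 1 without Dup/+ 21 and 47, the count of Del/+ against wt in the hippocampus, 3, which was 6 with array plate as a block, and the correlation of Arc, 0.77 with an exact permutation p over 0.05 without mice 21 and 47. The striatum count also moved without Dup/+ 21, 47 and 54, a fit that left only Dup/+ 19 in that group. The fits that leave out arrays hold fewer samples, while the plate block fits all 16, and the cause was not tested. With the mouse number as a replicate block, the count of members whose slope differed between regions stayed 0 and the count of differing wt levels over the 3 contrasts stayed 71, and it was 69 with no filter.

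When each array was left out in turn, counts at an unadjusted p under 0.05 with copy number ran from 1 to 4 in the hippocampus, 7 to 11 in the striatum, 0 to 3 in the cerebellum and 1 to 4 in the liver. Against wt they ran from 1 to 7 (Del/+) and 1 to 4 (Dup/+) in the hippocampus and from 0 to 3 and 4 to 9 in the striatum, where the count at 5% FDR ran from 0 to 1. The share over all kept probe sets was not counted for these fits. The low ends were reached without Del/+ 23 in the hippocampus, Dup/+ 19 in the cerebellum, Del/+ 11 in the liver, wt 17 or 35 (Del/+ and Dup/+ against wt) and Del/+ 11, Del/+ 26 or Dup/+ 47 (Dup/+ against wt) in the hippocampus, and Del/+ 7 (Del/+ against wt; 1 without Del/+ 11 or 28) and Dup/+ 47 (Dup/+ against wt) in the striatum. The high ends were reached without hippocampus Dup/+ 45, liver Dup/+ 18 and hippocampus wt 16. The correlation ran from 0.45 to 0.81 for Fos, 0.21 to 0.57 for Egr1 and 0.64 to 0.82 for Arc. That of Fos had an exact permutation p under 0.05 without wt 16, and that of Arc had one over 0.05 without Del/+ 7, Del/+ 23, wt 6, wt 29 or Dup/+ 47.

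Slopes near 0 changed sign in some of these fits, with none of them called. In the hippocampus Fos ran from -0.093 to 0.12, Egr1 from -0.034 to 0.038 and Arc from -0.087 to 0.040. Fos ran from -0.40 to 0.0047 in the striatum and from -0.12 to 0.13 in the cerebellum, and Arc from -0.10 to 0.053 in the cerebellum and from -0.18 to 0.058 in the liver.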
